A study of Homo sapiens with 4 samples.

Results

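Hypoxia and glycolysis genes were followed in decitabine-treated cells labelled with the names of oral squamous carcinoma lines. The set held 33 genes, chosen by gene symbol as targets of the hypoxia-inducible factors (HIF) or as enzymes of glycolysis, out of 51103 genes in the table. The rule reads symbols only, but the set was drawn up with earlier results of these data known, which limits what its counts beside all genes can show. All 33 were found, and all 33 had enough reads to be among the 15427 genes tested. Messenger RNA was sequenced from cells labelled CAL27, a tongue carcinoma line, and SCC15, also catalogued as a tongue carcinoma line. The SCC15-labelled libraries held few squamous epithelial transcripts, as given below. Each line was grown for 48 h either with the solvent DMSO or with 10 µM decitabine (5-aza-2'-deoxycytidine, 5-AZA-CdR in the labels), a cytidine analogue that is built into DNA and traps DNA methyltransferases. Each of the 4 combinations had 1 library, so no group has a replicate culture, and a value is replicated only by the other line. The labels name no low-oxygen culture and no change of glucose in any group.

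Cells sense oxygen through prolyl hydroxylases of the EGLN family, which mark the HIF alpha subunits for destruction by the VHL ubiquitin ligase. When oxygen is short, HIF alpha is kept, pairs with ARNT and binds DNA at a core of A or G followed by CGTG. Its targets raise glucose uptake and glycolysis, divert pyruvate from oxidation in mitochondria, remove mitochondria, buffer acid and call in blood vessels. Some of these targets, BNIP3 and CA9 among them, are also known from other tumours as genes whose promoters can be methylated.

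Counted reads ranged from 14524461 to 17583706 per library. The CAL27 libraries expressed squamous epithelial genes, with 13 of 14 markers at 1 CPM (reads scaled to a common library size, TMM) or more in both. Of these markers, the libraries labelled SCC15 had 3 with DMSO and 5 with decitabine, with a summed level of 13.9 and 38.5 CPM against 2834 and 2699 CPM in CAL27, and KRT6A, KRT16, DSG3 and DSC3 had 0 reads in both. They are called by their label here, and their identity was not tested. Leukocyte markers summed to between 0.206 and 1.61 CPM, with PTPRC, CD68 and CD79A at 0 reads. The 4 endothelial markers summed to 46.8 and 50.8 CPM in CAL27, nearly all from CDH5 (668 and 785 reads), and to 1 and 2.44 CPM in SCC15. The 6 fibroblast genes (COL1A1, COL1A2, COL3A1, PDGFRB, DCN and LUM) summed to 19.9 and 51.3 CPM in CAL27 with DMSO and decitabine and to 30.7 and 82 CPM in SCC15, with DCN at 0 reads in all 4 libraries. Their sum was thus higher with decitabine in both lines, as were several genes below, and COL1A1 rose (2.13 ± 0.39 on the log2 scale, edgeR adjusted p = 0.00435). The sum was mostly COL1A1 in CAL27 (13.9 and 41.3 CPM), where COL3A1 had 2 and 0 reads. In SCC15 it was mostly COL3A1 (23 and 47.6 CPM), and LUM had a log2 ratio of -0.07. Of the 5 fibroblast genes tested, 3 had a ratio above 0 in both lines. The part of these fibroblast genes in the results below was not tested.

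The promoters of 5 members are shown because they carry the patterns described below: ANGPTL4, which passed the test for decitabine, CA9 and BNIP3, which one line nearly lacked, ALDOC, which was close to 2-fold higher in both lines, and LDHA, which holds the HIF core more often than the others in its ACGTG form and had ratios of 0.27 and -0.24. Each line gives 300 bases along the gene, 250 before and 50 after the start, from RefSeq on GRCh38.p14. Capitals mark ACGTG or GCGTG on either strand (CACGT or CACGC as written), and CACGTG, which reads as ACGTG on both strands, was counted as 1 place. The windows are chr19:8363905-8364204 (plus strand), chr9:35673678-35673977 (plus), chr10:131981874-131982173 (minus), chr17:28576846-28577145 (minus) and chr11:18394313-18394612 (plus).
ANGPTL4: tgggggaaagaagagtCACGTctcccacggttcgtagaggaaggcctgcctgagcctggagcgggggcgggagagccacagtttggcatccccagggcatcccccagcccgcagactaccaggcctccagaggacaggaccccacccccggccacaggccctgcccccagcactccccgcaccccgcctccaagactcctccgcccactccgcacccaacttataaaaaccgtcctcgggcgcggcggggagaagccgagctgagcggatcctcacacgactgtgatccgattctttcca
CA9: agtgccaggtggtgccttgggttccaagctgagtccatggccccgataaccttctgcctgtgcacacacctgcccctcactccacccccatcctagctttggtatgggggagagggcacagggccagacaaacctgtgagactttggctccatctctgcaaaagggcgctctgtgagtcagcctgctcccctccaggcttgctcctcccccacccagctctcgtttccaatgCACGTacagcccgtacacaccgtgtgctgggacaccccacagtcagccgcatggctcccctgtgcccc
BNIP3: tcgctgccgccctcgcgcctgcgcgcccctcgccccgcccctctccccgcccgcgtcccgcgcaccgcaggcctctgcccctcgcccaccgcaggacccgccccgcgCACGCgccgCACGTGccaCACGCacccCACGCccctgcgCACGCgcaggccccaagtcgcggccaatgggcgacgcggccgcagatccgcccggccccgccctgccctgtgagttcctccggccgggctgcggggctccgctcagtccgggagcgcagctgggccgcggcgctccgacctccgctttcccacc
ALDOC: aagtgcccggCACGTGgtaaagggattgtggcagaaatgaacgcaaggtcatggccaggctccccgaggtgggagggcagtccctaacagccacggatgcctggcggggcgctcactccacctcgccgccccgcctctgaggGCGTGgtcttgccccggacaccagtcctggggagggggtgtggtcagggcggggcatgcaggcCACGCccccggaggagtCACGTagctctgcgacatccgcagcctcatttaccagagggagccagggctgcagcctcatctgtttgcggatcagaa
LDHA: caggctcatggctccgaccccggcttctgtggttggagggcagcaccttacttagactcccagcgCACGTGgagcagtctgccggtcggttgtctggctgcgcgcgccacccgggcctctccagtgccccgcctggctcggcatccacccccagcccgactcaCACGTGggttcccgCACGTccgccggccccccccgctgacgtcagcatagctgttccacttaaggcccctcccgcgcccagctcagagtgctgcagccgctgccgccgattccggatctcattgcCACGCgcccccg
ANGPTL4 and CA9 each held 1 ACGTG and no GCGTG. BNIP3 held 1 ACGTG and 4 GCGTG, ALDOC 2 and 2, and LDHA 3 and 1. CpG dinucleotides, where DNA is methylated, numbered 20 in ANGPTL4, 7 in CA9, 48 in BNIP3, 19 in ALDOC and 29 in LDHA. RefSeq windows were at hand for 29 of the 33 members, 48 windows with alternative starts. Of these, 45.8% held ACGTG and 43.8% GCGTG, against 21.4% and 36.5% of all 35116 windows. The member windows also held more CpG, with a median of 30 against 14, and both cores contain a CpG. Letters in a window are a description and not evidence of binding or of methylation, neither of which was measured.

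The first question was whether decitabine changed these genes across the lines. NDRG1 and ANGPTL4 rose and no member fell, by a quasi-likelihood test (edgeR) that holds the cell line as a term. That is 2 of 33 members called higher, where 0.544% of all genes tested were called higher, and 0 of 33 called lower, where 0.0778% were. At an unadjusted p of 0.05, 9 members were higher and 0 lower, where 7.78% and 2.57% of all genes tested were. DESeq2 called 1 of the 31 members to which it gave an adjusted p higher and 0 lower, where it called 0.247% and 0.119% of all such genes. In direction, 21 of 33 members had a ratio of decitabine over DMSO above 0 in both lines, where 31% of all genes tested did, and 3 members (EGLN1, MXI1 and PFKFB4) were below 0 in both, where 26.5% did, although EGLN1 was at 0.06 in CAL27 with the GC trend removed. The median log2 ratio of the members was 0.28 in CAL27 and 0.35 in SCC15, beside medians over all genes tested of 0.00 and 0.05. With library totals in place of TMM scaling, the median over all genes became 0.13 in CAL27 and 0.07 in SCC15 and the members' medians 0.41 and 0.37. By that scaling 25 members were above 0 in both lines, where 38.3% of genes were. With the GC trend removed there were 18, where 32% of genes were, and with DESeq2 size factors 21, where 31.5% were.

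**Figure D1:**
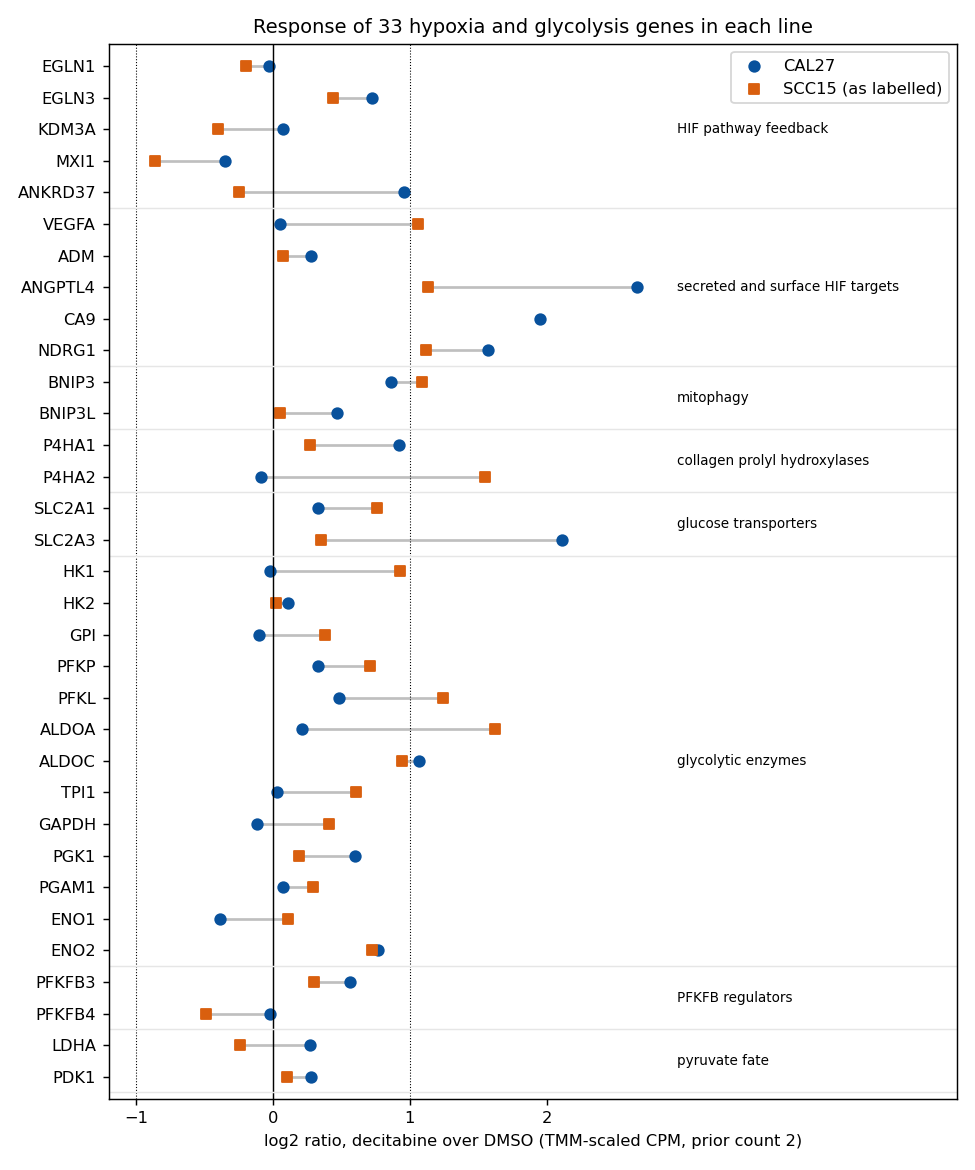
Log2 ratio of decitabine over DMSO for each of the 33 members, grouped by role, with circles for CAL27 and squares for the libraries labelled SCC15; dotted lines mark a 2-fold change. ANGPTL4 and NDRG1 lie beyond 2-fold in both lines, most glycolytic enzymes lie to the right of 0 in SCC15, and CA9 has no SCC15 point because its libraries held 1 and 0 reads. The CAL27 point of SLC2A3 rests on 0 and 7 reads and depends on the prior count.

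Both called members belong to the 5 secreted, surface and stress-response HIF targets. NDRG1, a cytoplasmic stress-response gene (chromosome 8, 133237171 to 133302022), had 710 reads (DMSO) and 2360 (decitabine) in CAL27, while SCC15 held 126 and 330. Within each line the decitabine library was the higher one, but treated SCC15 stayed below untreated CAL27. The log2 ratios were 1.57 in CAL27 (exact 95% counting interval 1.46 to 1.70) and 1.12 in SCC15 (0.83 to 1.44). Counting intervals here cover counting error only, not the spread between cultures. The shared log2 fold of NDRG1 was 1.36 ± 0.29 (moderated SE, adjusted p = 0.016). It passed with DESeq2 (adjusted p = 0.021) and with the GC trend removed, at 1.27 ± 0.25 (adjusted p = 0.00804), but not with limma on log2(FPKM + 0.1) or log2(FPKM + 1) (adjusted p = 0.081 and 0.288).

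ANGPTL4, a secreted inhibitor of lipoprotein lipase (chromosome 19, 8363289 to 8374373), had 16 reads (DMSO) and 124 (decitabine) in CAL27, while SCC15 held 279 and 733. Untreated SCC15 was thus above treated CAL27, the reverse of the layout of NDRG1. The log2 ratio was 2.66 in CAL27 (2.04 to 3.65), the largest among the members with reads in both libraries of a pair, and 1.13 in SCC15 (0.93 to 1.34). The shared log2 fold was 1.79 ± 0.40 (adjusted p = 0.0195). DESeq2 did not call ANGPTL4 (adjusted p = 0.214), and with the GC trend removed it was 1.36 ± 0.37 (adjusted p = 0.0863). With limma it passed on log2(FPKM + 0.1) (adjusted p = 0.0309) and not on log2(FPKM + 1) (adjusted p = 0.216).

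CA9, a membrane carbonic anhydrase (chromosome 9, 35673856 to 35681159), had 68 reads (DMSO) and 298 (decitabine) in CAL27, but only 1 and 0 in SCC15. Its response could be read in CAL27 alone, with a log2 ratio of 1.95 (1.59 to 2.38). The shared test, which rests on that pair, did not call it (adjusted p = 0.284). Of its exon bases, 38.5% also lie in exons of ARHGEF39 on the opposite strand, and whether counting used the strand is not given in the sources used here. ARHGEF39 had 206 reads (DMSO) and 185 (decitabine) in CAL27, while SCC15 held 162 and 222, where CA9 had none to 1.

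VEGFA, the main growth factor for blood vessels (chromosome 6, 43770184 to 43786487), had 2202 and 2536 reads in CAL27 with DMSO and decitabine, and 110 and 278 in SCC15. In CAL27 the ratio was 0.05 (-0.03 to 0.13), and the SCC15 ratio was 1.06 (0.75 to 1.41). The adjusted p was 0.57. ADM, the vasodilator peptide adrenomedullin, had ratios of 0.28 and 0.07 (adjusted p = 0.884). In this group VEGFA, ANGPTL4 and NDRG1 were thus at least 2-fold higher with decitabine in SCC15, and ANGPTL4, CA9 and NDRG1 in CAL27. With the GC trend removed, the SCC15 ratios were below 2-fold for all 3, at 0.76 for VEGFA, 0.60 for ANGPTL4 and 0.91 for NDRG1.

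**Figure D2:**
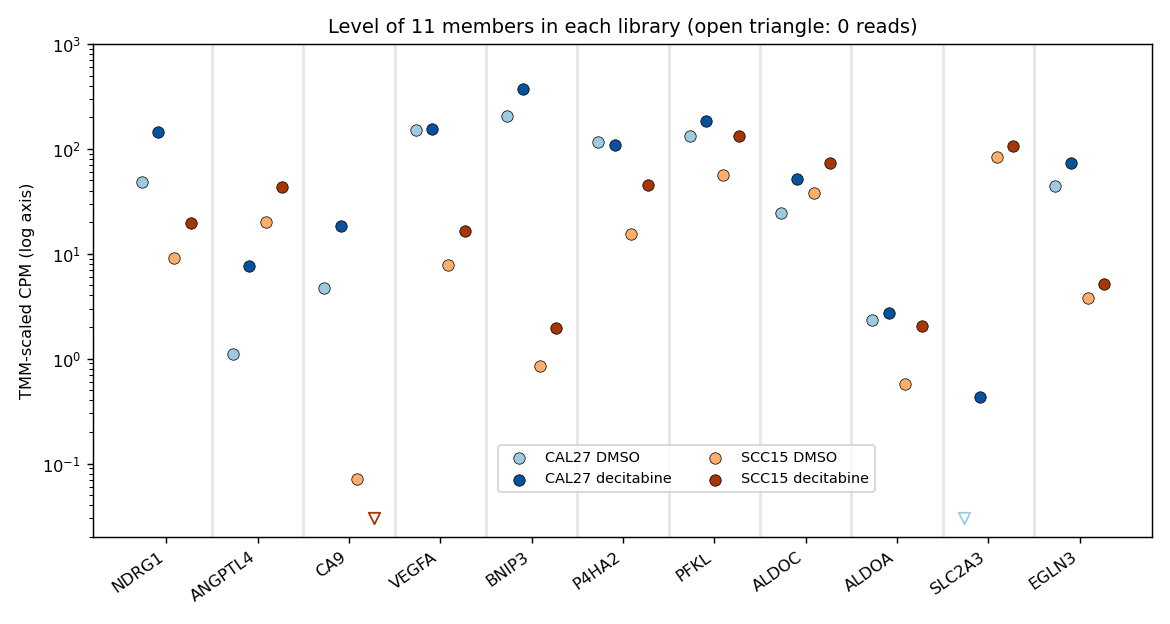
Level of 11 members in each of the 4 libraries, as TMM-scaled CPM on a log axis, with light points for DMSO, dark points for decitabine and open triangles for 0 reads. NDRG1 and ANGPTL4 are higher with decitabine in both lines, while BNIP3, CA9, VEGFA and EGLN3 sit far lower in SCC15 and SLC2A3 is near or above 100 CPM in SCC15 and below 1 CPM in CAL27.

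By the 2-fold rule within a line (log2 ratio of at least 1 and at least 1 CPM in either library, with no test), 4 of 32 members were higher with decitabine in CAL27, where 5.14% of all genes were, and 7 of 32 in SCC15, where 13.2% were. The CAL27 members were NDRG1, ANGPTL4, CA9 and ALDOC. Those of SCC15 were NDRG1, ANGPTL4, VEGFA, BNIP3, P4HA2, PFKL and ALDOA. No member was at least 2-fold lower in either line, where 1.29% of genes in CAL27 and 6.51% in SCC15 were. The SCC15 ratios were higher at higher GC content of the transcript (Spearman's rho 0.496 across 15427 genes, and 0.248 in CAL27), and the members' median GC of 52.8% was above the 48.2% of all genes tested. With that trend removed, 2 members (P4HA2 and ALDOA) were at least 2-fold higher in SCC15, where 7.88% of genes were, and 5 in CAL27 (ANGPTL4, CA9, NDRG1, ANKRD37 and P4HA1), where 3.84% were.

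The mitophagy receptors BNIP3 and BNIP3L mark mitochondria for removal. BNIP3 (chromosome 10, 131966455 to 131982013) had 2978 reads (DMSO) and 6004 (decitabine) in CAL27, while SCC15 held 12 and 33. The line with abundant BNIP3 and the line that nearly lacked it thus had ratios with overlapping intervals, 0.86 (0.79 to 0.92) and 1.09 (0.21 to 2.29), the latter resting on few reads. The shared fold of 0.96 ± 0.33 did not pass (adjusted p = 0.238). BNIP3L had ratios of 0.47 and 0.05 (adjusted p = 0.805), and of 0.59 and 0.48 with the GC trend removed.

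Collagen prolyl 4-hydroxylases let collagen chains fold into a stable helix, and P4HA1 and P4HA2 encode alternative catalytic subunits. P4HA2 (chromosome 5, 132191838 to 132295315) had 1680 and 1763 reads in CAL27, while SCC15 held 216 with DMSO and 762 with decitabine, with log2 ratios of -0.09 and 1.55 (1.34 to 1.78). P4HA1 had the opposite layout, with ratios of 0.92 (0.82 to 1.04) in CAL27 and 0.27 (0.07 to 0.47) in SCC15. Neither passed the shared test (adjusted p = 0.432 and 0.467). The difference in response between lines could not be tested for these or other members, since a model with that term leaves no residual degrees of freedom.

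Among genes that feed back on the pathway, 0 of 5 passed, and 1 of 5 was above 0 in both lines, where 31% of all genes tested were. EGLN3, a HIF prolyl hydroxylase (chromosome 14, 33924231 to 34462774), had 649 and 1192 reads in CAL27, while SCC15 held 53 and 87, with ratios of 0.72 and 0.44 (adjusted p = 0.529). EGLN1, the main oxygen sensor of the family, had -0.03 and -0.20. MXI1, which opposes MYC, had the lowest SCC15 ratio of the members above the 3-read floor, at -0.86, and -0.35 in CAL27 (adjusted p = 0.534). The histone demethylase gene KDM3A had 0.07 and -0.40, and ANKRD37, an ankyrin repeat gene read at 12 to 31 reads, had 0.96 and -0.25. Of ANKRD37 exon bases, 35.2% also lie in exons of UFSP2 on the opposite strand, which had 188 to 266 reads. Strand handling is not known here, so the ANKRD37 values are uncertain.

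Glucose enters through the transporters SLC2A1 and SLC2A3. SLC2A1 had 4364 and 6098 reads in CAL27, while SCC15 held 1918 and 3903, with ratios of 0.33 and 0.76 (adjusted p = 0.52). SLC2A3 (chromosome 12, 7919230 to 7936275) had 0 reads in CAL27 with DMSO and 7 with decitabine, and the exact counting interval of its log2 ratio began at 0.37. In SCC15 it had 1164 and 1783 reads, a ratio of 0.35. Its near-identical paralogue SLC2A14, to which reads could be misassigned, had between 0 and 4 reads in the 4 libraries.

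Of the 13 glycolytic enzymes, from hexokinase to enolase, 0 passed the shared test. Medians of the log2 ratio were 0.11 for CAL27 and 0.61 for SCC15, with 9 of 13 above 0 in CAL27, where 49.9% of all genes tested were, and 13 of 13 in SCC15, where 52.8% were. Removing the GC trend gave medians of 0.12 and 0.28, and 8 and 10 of 13 were above 0, where 52.5% and 55.5% of genes were. Among the enzymes of highest level, GAPDH had ratios of -0.12 and 0.41, ENO1 of -0.39 and 0.11, PGAM1 of 0.07 and 0.29 and TPI1 of 0.03 and 0.61. With the GC trend removed, the SCC15 ratio of GAPDH was -0.06 and that of ENO1 -0.12.

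ALDOC, an aldolase known from brain (chromosome 17, 28573115 to 28577264), had 357 reads (DMSO) and 835 (decitabine) in CAL27, while SCC15 held 531 and 1224. The log2 ratios of ALDOC had overlapping counting intervals in the lines, 1.07 (0.89 to 1.25) and 0.94 (0.80 to 1.09), and the shared fold of 1.01 ± 0.29 did not pass (adjusted p = 0.113). ENO2, the neuronal enolase, had ratios of 0.77 (0.67 to 0.88) and 0.72 (0.53 to 0.92), at 0.75 ± 0.28 (adjusted p = 0.303). PFKL, the liver-type phosphofructokinase (chromosome 21, 44300051 to 44327376), had 1932 and 3012 reads in CAL27, while SCC15 held 784 and 2218. Its ratios were 0.48 (0.40 to 0.57) and 1.24 (1.12 to 1.36), and its shared fold was 0.86 ± 0.29 (adjusted p = 0.221). With library totals as the scaling, both ALDOC (1.08, adjusted p = 0.0218) and PFKL (0.94, adjusted p = 0.0447) passed. With the GC trend removed neither did, at 0.77 for ALDOC (adjusted p = 0.193) and 0.48 for PFKL (adjusted p = 0.597), whose ratios in the lines were then 0.25 and 0.71.

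ALDOA, the aldolase of muscle and most other tissues (chromosome 16, 30064164 to 30070457), was low throughout, with 34 and 44 reads in CAL27 against 8 and 34 for SCC15. In GENCODE release 29, 42.3% of its exon bases also lie in exons of AC093512.2 on the same strand, which had 46 and 47 reads in CAL27, while SCC15 held 26 and 47. How reads in exons of both genes were counted is not known here, so the ALDOA values are uncertain. Its log2 ratios were 0.21 (-0.46 to 0.91) and 1.62 (0.69 to 3.15).

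Of the other enzymes, HK1, the common hexokinase, had 4447 and 4870 reads in CAL27, while SCC15 held 3530 and 8067, ratios of -0.02 and 0.93. HK2, its inducible relative, had 0.11 and 0.02. GPI had -0.10 and 0.38, the platelet-type phosphofructokinase PFKP 0.33 and 0.71, and PGK1, an early ATP-producing step, 0.60 and 0.19. The share of all counted reads in these 13 enzymes and LDHA was 1.38% with DMSO and 1.48% with decitabine in CAL27. SCC15 had 1.13% and 1.37%, and each exact 95% binomial interval was narrower than the differences within lines. The share in mitochondrially encoded genes was lower with decitabine over the same pairs, at 4.28% after 7.24% and 1.52% after 7.6%, and its part in these shares was not tested.

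Regulators of glycolytic flux and of the fate of pyruvate made up 4 members. PFKFB3, which makes the activator of phosphofructokinase, had 0.56 and 0.30, and PFKFB4 had -0.02 and -0.49. LDHA, which turns pyruvate into lactate, had 33566 and 45065 reads in CAL27, while SCC15 held 33216 and 33640, ratios of 0.27 and -0.24. PDK1, a kinase that inhibits pyruvate dehydrogenase, had 0.28 and 0.10. None of the 4 passed the shared test.

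The second question was how far the lines themselves differ. By the line term of the same fit, 16 of 33 members were higher in CAL27, where 22.7% of all genes tested were, and 6 of 33 were higher in SCC15, where 21.6% were. These are 48.5% and 18.2% of the members. In bulk RNA, fewer cells of a type and less RNA per cell cannot be told apart, and the lines also differ in the squamous genes given above, so a difference between these libraries cannot be told apart from the identity of the SCC15-labelled cells.

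BNIP3 differed by 7.69 ± 0.40 on the log2 scale (adjusted p = 2.6e-18), CA9 by 8.11 ± 0.86 (adjusted p = 5e-10), VEGFA by 3.74 ± 0.33 (adjusted p = 4.38e-12) and EGLN3 by 3.69 ± 0.35 (adjusted p = 2.22e-11), all higher in CAL27. The CA9 fold rests on 1 read in SCC15 and depends on the prior count. Set against the floor of 3 reads, CA9 with decitabine was at least 103-fold higher in CAL27. HK2, NDRG1, MXI1, P4HA2, ENO2, P4HA1, BNIP3L and PDK1 were also higher in CAL27, by between 2.99 and 1.23 on the log2 scale.

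SLC2A3 was the member with the largest difference the other way (adjusted p = 4.55e-17). With DMSO it was at least 404-fold higher in SCC15 than in CAL27, where it had 0 reads. ANGPTL4 differed by -3.20 ± 0.41 (CAL27 minus SCC15, adjusted p = 3.5e-08), PFKFB4 by -1.97 ± 0.38 and ADM by -1.31 ± 0.29. The HIF targets therefore did not differ between the lines in 1 direction. Of the 13 glycolytic enzymes, 4 (HK2, ENO2, PGK1 and PFKL) were higher in CAL27, where 22.7% of all genes tested were. Only 1 (PFKP) was higher in SCC15, where 21.6% were, and the other 8 did not pass.

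**Figure D3:**
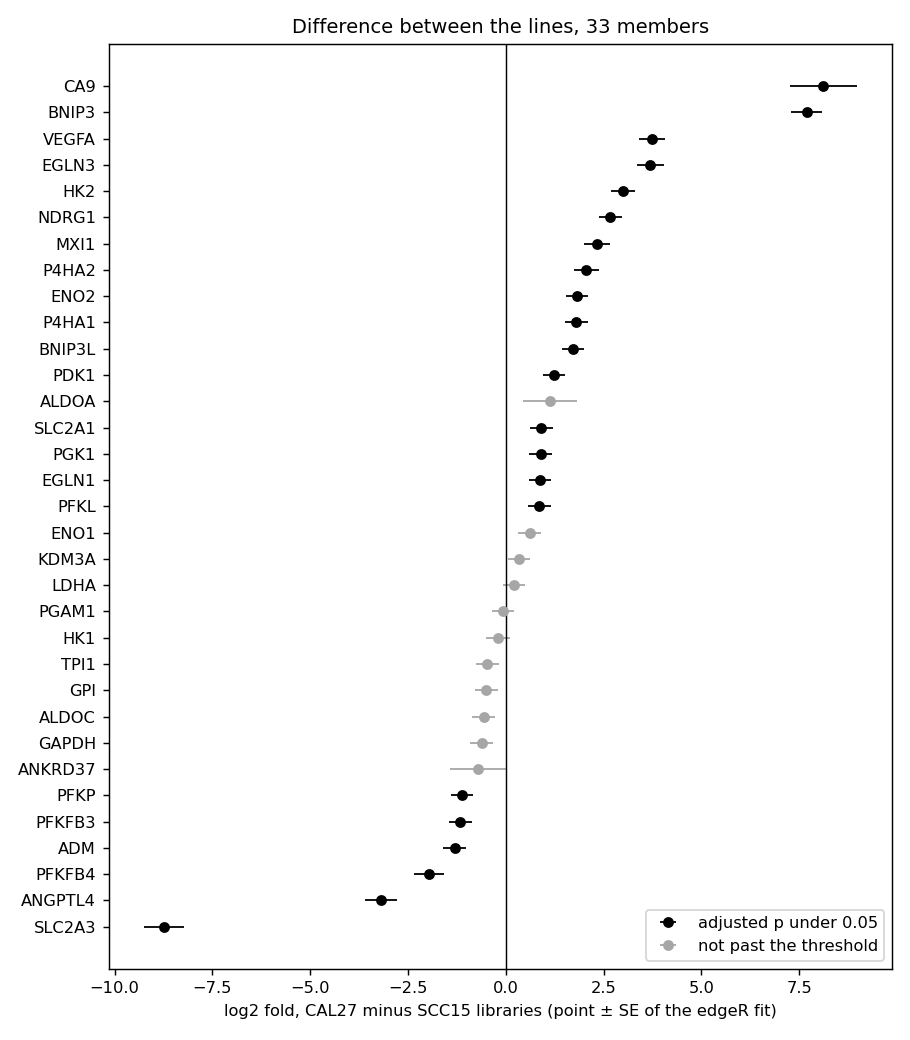
Difference between the lines for each member, as the log2 fold of CAL27 minus SCC15 libraries with the SE of the edgeR fit; black points passed an adjusted p of 0.05 and grey points did not. CA9 and BNIP3 stand at the top near 8, SLC2A3 at the bottom near -9, and most glycolytic enzymes lie close to 0.

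Levels can be compared between genes on the FPKM scale, which the authors scaled by gene length. GAPDH ranged from 851 to 1375 FPKM over the 4 libraries and ENO1 from 505 to 975, followed by TPI1 (332 to 547), PGAM1 (305 to 384) and LDHA (308 to 493), whose ranges overlap. GAPDH was above ENO1 in 3 of the 4 libraries, all but CAL27 with DMSO. CA9 did not exceed 12.1 FPKM, and ANKRD37 did not exceed 0.81.

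Some pairs of paralogues were divided differently in the lines, and others alike. ENO1 made up between 95.8% and 99% of enolase FPKM (ENO1 and ENO2) in all 4 libraries, and PFKFB3 between 84% and 93.7% of the sum with PFKFB4. That sum leaves out PFKFB2, which was not a member. PFKFB2 had 6.94 and 6.6 FPKM in CAL27 with DMSO and decitabine, and 1.84 and 2.09 in SCC15. PFKFB4 had 0.902 and 0.979 FPKM in CAL27, and 3.93 and 2.82 in SCC15. HK2 made up 32.3% and 34.5% of hexokinase FPKM (HK1 and HK2) in CAL27 with DMSO and decitabine, and 7% and 3.85% in SCC15. SLC2A3 made up 31.8% and 25.9% of the transporter sum in SCC15 and at most 0.088% in CAL27. BNIP3 made up 48.4% and 55% of the sum with BNIP3L in CAL27, but 1.1% and 2.42% in SCC15. The P4HA2 share of P4HA1 and P4HA2 was 38.1% with DMSO and 23.4% with decitabine in CAL27, and SCC15 went the other way, from 18.5% to 35.7%. The EGLN3 share of EGLN1 and EGLN3 was higher with decitabine in both, at 39.8% after 28.2% and, in SCC15, 8.34% after 5.47%. These shares have no test.

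**Figure D4:**
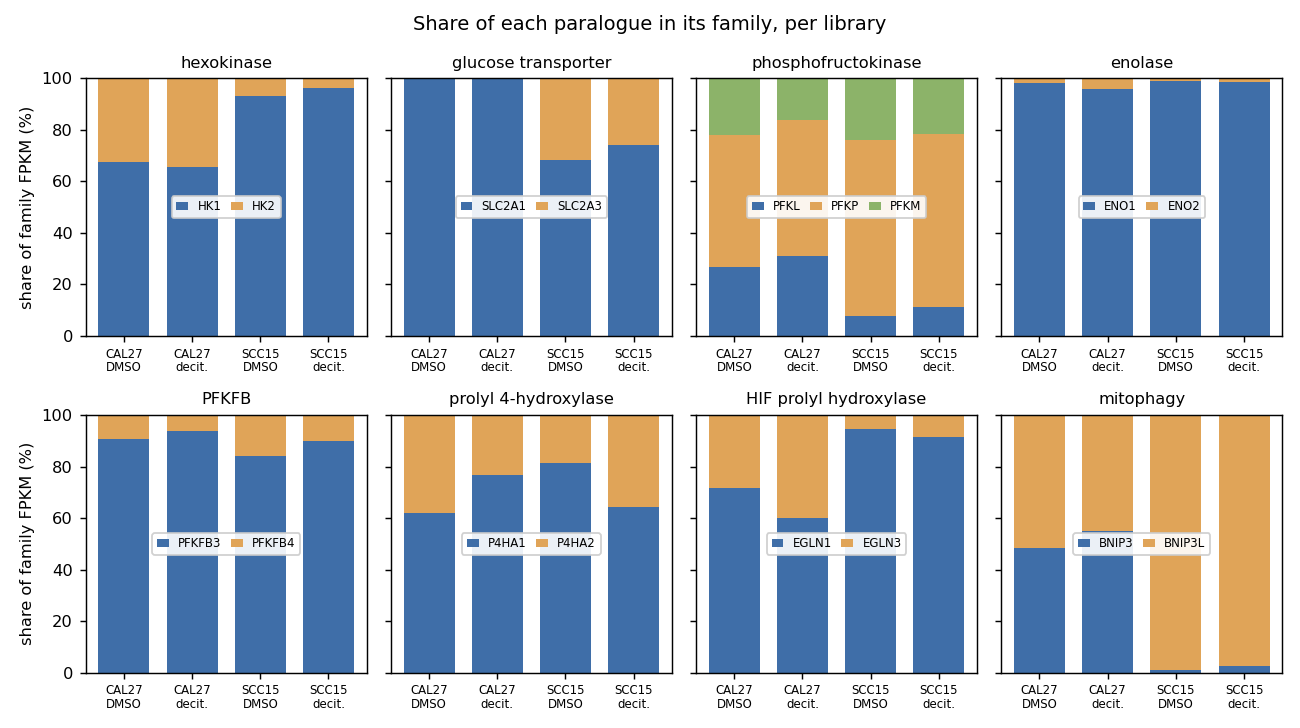
Share of each paralogue in the summed FPKM of the genes shown for its family in each library, as stacked bars from 0 to 100%. PFKFB2 is not shown, and "decit." is decitabine. HK2 and BNIP3 take large shares in CAL27 and small ones in SCC15, and SLC2A3 is visible in SCC15 alone.

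Other genes of the pathway gave a background for the members. None of the lists below was tested as a list, and 0 genes of any of them passed the shared test. Of 28 tested HIF targets outside the members, 17 were above 0 in both lines and 2 below. Of all genes tested, 31% and 26.5% were. The median ratio of these 28 was 0.35 in each line. Removing the GC trend gave 0.35 in CAL27 and 0.21 in SCC15. STC1, a secreted calcium-regulating hormone, had 154 reads (DMSO) and 384 (decitabine) in CAL27, while SCC15 held 52 and 194, at 1.39 ± 0.38 (adjusted p = 0.0901, and 0.0294 at 1.53 with the GC trend removed). CA12, a relative of CA9, had ratios of 0.18 and 1.73, and PPFIA4 had 1.31 and 0.62. With the GC trend removed, CA12 had 0.21 and 1.61 and PPFIA4 1.17 and 0.15.

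HIF subunits and their regulators had medians of -0.01 and 0.15 over 14 tested genes, and of 0.08 and 0.16 with the GC trend removed. HIF1A, the subunit that oxygen controls, had 8062 reads (DMSO) and 7417 (decitabine) in CAL27, while SCC15 held 3349 and 3539 (ratios -0.28 and -0.18, adjusted p = 0.837), and with the GC trend removed the SCC15 ratio was 0.39. EPAS1, which encodes a second HIF alpha subunit, had 0.53 and 0.80 (adjusted p = 0.382), ARNT2, a partner subunit, -0.47 and 2.20, and ELOC, of the VHL ligase, -0.11 and -0.83. HIF protein was not measured.

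Further glycolysis and lactate genes had medians of 0.16 and 0.58 over 11 tested genes, and of 0.21 and 0.38 with the GC trend removed. PKM, the pyruvate kinase gene, had 0.30 and 0.71, the lactate exporter gene SLC16A3 0.50 and 1.08, and ENO3, the muscle enolase, 0.95 and 0.94. Their SCC15 ratios with that trend removed were 0.46 for PKM, 0.56 for SLC16A3 and 0.54 for ENO3. Pyruvate dehydrogenase and its regulators had medians of 0.04 and -0.05 over 12 genes, with PDK2 at 0.15 and 0.87 and PDK3 at 0.33 and 0.70. Removing the GC trend gave medians of 0.01 and 0.20, and SCC15 ratios of 0.38 for PDK2 and 0.92 for PDK3. PDK4 had 0 and 4 reads in CAL27, while SCC15 held 163 and 262, the same line layout as SLC2A3. Pentose phosphate and gluconeogenesis genes had medians of -0.14 and 0.38 over 10 genes, and of -0.25 and 0.10 with the GC trend removed. Pyruvate carboxylase, PC, had 0.69 and 1.44 (adjusted p = 0.119), and PCK2 had -0.11 and 1.15. Without the GC trend the SCC15 ratios were 0.93 for PC and 0.64 for PCK2.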

How the data were processed

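Polyadenylated RNA of 4 libraries was sequenced, 1 for each line and treatment. The authors deposited raw counts of reads for every gene, with FPKM beside them. Alignment and counting involved HISAT2, HTSeq 0.13.5 and GRCh38 (per the submitters' processing notes). The sources used here give no settings, strand handling or annotation release. FPKM values divided by counts gave 1 length per gene in all libraries, so the deposited FPKM scale those counts. Gene coordinates, exon overlaps and transcript GC came from GENCODE release 29 on GRCh38, which held all 51103 identifiers.

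Tests used R 4.3.3 and edgeR 4.0.16: quasi-likelihood F test on the counts, TMM scaling, filterByExpr (minimum count 10, total 15), terms for cell line and treatment, and Benjamini-Hochberg adjustment over 15427 genes at 0.05. Libraries pair by line, which the labels give (r = 0.983 and 0.963 across genes within lines, at most 0.73 across lines). The model leaves 1 residual degree of freedom, with the variance shrunk towards that of other genes (prior degrees of freedom 36.1), so an SE speaks of these 2 lines and 1 culture of each. Within-line log2 ratios used a prior count of 2, and bounds took 3 reads in place of 0. Counting intervals are exact conditional binomial, at 95%; the reads carry no molecular identifiers in the labels. On simulated counts for the decitabine comparison over 15427 genes, 20% of 100 genes changed 2-fold and 95% of 100 changed by 2 on the log2 scale were recovered. The changed genes were expressed in both lines and had the same fold in both. These shares therefore do not cover genes nearly absent from a line or with unlike ratios in the lines. Alternatives were other scalings and filters, DESeq2 1.42.0, limma 3.58.1 on log2(FPKM + 1) and log2(FPKM + 0.1), no line term, and a lowess trend with GC removed from each library.

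Members were named by symbol. Those given with reads in every library passed the shared test, had a 2-fold ratio in a line or were among the 5 with the largest called line difference; others are given with reads where a comparison rests on them. Other lists name their called genes and the 3 with the largest shared fold. A gene that this rule names is not reported here. Members and lists were chosen with earlier results of these data known. Marker genes and HIF1A are named as well.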

Additional observations from a re-analysis of the deposited data

Results flagged for a closer look

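Decitabine over DMSO ratios of 4 members lay on opposite sides of 0 in the 2 lines, with both exact 95% counting intervals clear of 0. The SCC15 log2 ratio minus that of CAL27 was 0.48 for GPI, 0.52 for GAPDH, 0.50 for ENO1 and -0.51 for LDHA. The first 3 were below 0 in CAL27 and above it in SCC15, and LDHA was the reverse. The difference was not tested, since each line has 1 pair, and at these depths (7102 reads or more per library) a counting interval clears 0 at small ratios. With the GC trend removed the SCC15 ratios were 0.14 for GPI, -0.06 for GAPDH, -0.12 for ENO1 and -0.06 for LDHA.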

How the results depend on the processing

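The 2 members called higher by the shared test became 4 with total-count scaling, 1 each with DESeq2, with limma on log2(FPKM + 0.1) and with the GC trend removed with replicate block, and 0 with limma on log2(FPKM + 1) and with no replicate block, that is, without the cell line term. Called members numbered 0 lower under every alternative run. Over all genes, the 84 higher and 12 lower calls became 313 and 21 with total-count scaling, 155 and 21 with no filter on low counts, 27 and 13 with DESeq2, 1 and 1 with limma on log2(FPKM + 1), and 0 and 0 with no replicate block. Of SCC15's 2-fold rule, the 7 members became 2 with GC removal (7.88% of genes) and 3 on log2(FPKM + 1) (4.81% of genes). In CAL27 the members' median ratio was 0.41 with total-count scaling and on log2(FPKM + 0.1), where the median over all genes tested was 0.13. On log2(FPKM + 1) it was 0.38, where that of all genes was 0.08. In the main setting these medians were 0.28 and 0.00. Line calls by a test ranged from 16 to 18 members in CAL27 and 6 to 7 in SCC15. An untested 2-fold rule on the DMSO libraries alone gave 15 and 6. No share of all genes is given here for these alternative line settings, so their counts cannot be read against all genes. GC removal gave the shared folds of EGLN1 (0.02), KDM3A (0.02), ADM (-0.12), HK2 (-0.01) and GAPDH (-0.15) the other sign, and the PGAM1 line difference did so, at 0.08, with total-count scaling and limma on either FPKM scale. The cause of these changes was not tested. No library could be left out of a test, since each is the only one of its group.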

Other observations

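PCK1, the cytosolic enzyme that starts glucose synthesis from oxaloacetate, had enough reads in only 1 library and so was not tested. It was chosen after its values were seen. In SCC15 it went from 1 read with DMSO to 68 with decitabine, a log2 ratio of 4.38 with an exact 95% counting interval of 3.30 to 11.15, and in CAL27 it had 2 and 0 reads. Its mitochondrial relative PCK2 went from 509 to 1355 reads in SCC15 and from 438 to 453 in CAL27.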
